A study of Mus musculus with 2 samples.

Results

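The regions described here are divergent promoters of 2 protein-coding genes: stretches of the mouse genome from which 1 gene is read leftward and its neighbour rightward. They were chosen from the annotation alone, without any measured value. A pair of protein-coding genes of the basic GENCODE M21 set (mm10) entered when the genes lay on opposite strands, pointed away from each other, and had 5′ ends 1 to 1000 bp apart. Each region was the interval between the 5′ ends, widened by 300 bp to each side. The rule gave 754 pairs, made of 1487 genes, which is 6.78% of the 21938 protein-coding genes. In all, 21 genes stood in more than 1 pair, and the 754 regions formed 733 groups that did not overlap.

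The study measured DNase I hypersensitivity (DNase-seq) in hippocampus of male B6CASTF1/J mice 8 to 10 months old. This strain is the F1 hybrid of C57BL/6J and CAST/EiJ. There was 1 group of 2 samples, labelled as biological replicates 1 and 2, and each sample pooled 2 biosamples. Both carried 1 donor label, and the sources used here do not say if animals are shared between the pools. The tissue label speaks of a layer of hippocampus and names no layer, and no treatment or other genotype was included. There was thus no contrast between conditions, and every comparison is between kinds of promoters within the same 2 samples, given as a description with the spread between replicates.

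DNase I cuts DNA where nucleosomes are displaced, so a run of many cuts, called a peak, marks open chromatin. Within a peak, a short stretch of DNA that a bound protein shields from the enzyme is cut less than its flanks and is called a footprint. In mammals, many promoters rich in the dinucleotide CpG serve genes needed by nearly every cell, and such promoters tend to lack a TATA box. Divergent gene pairs are known to be common among genes of DNA repair, mitochondria and histones. A single open stretch between their start sites can serve transcription in both directions.

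To show what the values below refer to, the DNA of 10 such regions is given first. They are 5 of the tallest pairs, 4 textbook pairs that met the rule and the pair B3galt6/Sdf4, whose interval repeats a short unit and which was among those with the most footprints. All are the plus strand of GRCm38/mm10, 5′ to 3′, from the RefSeq assembly. The first gene named is read to the left and the second to the right. Where the interval fits into 300 bases, the run holds both 5′ ends and ends 30 bases beyond each. Otherwise it is the middle 300 bases of the interval, which holds neither. Capitals mark bases under a footprint in both replicates.
Hjurp/Trpm8: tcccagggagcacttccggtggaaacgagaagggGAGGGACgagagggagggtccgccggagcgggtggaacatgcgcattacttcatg
Aamp/Pnkd: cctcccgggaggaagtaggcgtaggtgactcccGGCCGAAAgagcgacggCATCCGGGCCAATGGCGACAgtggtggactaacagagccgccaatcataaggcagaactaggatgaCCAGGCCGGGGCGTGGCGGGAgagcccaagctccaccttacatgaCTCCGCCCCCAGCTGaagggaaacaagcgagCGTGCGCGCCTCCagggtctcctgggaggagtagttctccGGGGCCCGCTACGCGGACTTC
Cdc27/Myl4: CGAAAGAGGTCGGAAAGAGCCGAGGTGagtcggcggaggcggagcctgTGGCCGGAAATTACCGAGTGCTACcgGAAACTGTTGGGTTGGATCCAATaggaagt
Nfya/Oard1: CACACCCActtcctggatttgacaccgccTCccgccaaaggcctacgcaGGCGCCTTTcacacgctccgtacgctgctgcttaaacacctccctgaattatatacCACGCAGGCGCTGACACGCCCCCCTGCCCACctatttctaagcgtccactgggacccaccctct
Zfp654/Cggbp1: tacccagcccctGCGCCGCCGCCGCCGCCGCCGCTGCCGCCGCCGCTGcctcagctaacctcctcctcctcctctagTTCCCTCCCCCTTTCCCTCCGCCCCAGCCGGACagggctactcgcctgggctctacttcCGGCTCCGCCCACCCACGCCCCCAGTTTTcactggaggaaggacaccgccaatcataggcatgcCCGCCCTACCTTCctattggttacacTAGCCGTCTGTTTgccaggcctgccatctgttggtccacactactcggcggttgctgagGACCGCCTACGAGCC
Atm/Npat: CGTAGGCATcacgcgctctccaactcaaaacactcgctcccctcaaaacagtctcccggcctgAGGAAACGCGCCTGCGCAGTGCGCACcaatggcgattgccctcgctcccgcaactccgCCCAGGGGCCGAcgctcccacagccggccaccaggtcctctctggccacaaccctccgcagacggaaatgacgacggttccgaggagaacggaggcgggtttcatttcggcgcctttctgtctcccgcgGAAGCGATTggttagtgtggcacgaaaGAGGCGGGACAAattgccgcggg
Mcm4/Prkdc: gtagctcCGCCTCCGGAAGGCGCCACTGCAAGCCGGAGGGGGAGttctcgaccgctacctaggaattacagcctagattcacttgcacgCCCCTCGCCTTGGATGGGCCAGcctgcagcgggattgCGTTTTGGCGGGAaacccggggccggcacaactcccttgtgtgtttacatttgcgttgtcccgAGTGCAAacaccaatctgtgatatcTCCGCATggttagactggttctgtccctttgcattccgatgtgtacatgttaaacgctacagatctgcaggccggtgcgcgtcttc
Brca1/Nbr1: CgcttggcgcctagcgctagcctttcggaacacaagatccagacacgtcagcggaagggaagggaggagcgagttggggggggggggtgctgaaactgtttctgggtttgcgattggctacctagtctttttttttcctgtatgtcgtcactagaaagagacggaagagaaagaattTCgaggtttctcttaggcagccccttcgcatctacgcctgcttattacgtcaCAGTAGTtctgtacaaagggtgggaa
Col4a4/Col4a3: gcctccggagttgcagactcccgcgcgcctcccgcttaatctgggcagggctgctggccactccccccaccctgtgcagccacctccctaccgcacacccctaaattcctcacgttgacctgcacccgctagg
B3galt6/Sdf4: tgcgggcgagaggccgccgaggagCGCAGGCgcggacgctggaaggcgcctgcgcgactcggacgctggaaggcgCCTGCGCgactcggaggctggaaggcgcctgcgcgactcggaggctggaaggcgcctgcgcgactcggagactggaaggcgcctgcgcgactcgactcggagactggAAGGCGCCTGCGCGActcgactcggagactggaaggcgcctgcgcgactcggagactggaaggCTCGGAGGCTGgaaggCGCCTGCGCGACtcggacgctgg

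The run between Hjurp and Trpm8 spans chr1:88277603-88277691. Hjurp encodes the chaperone that loads the centromeric histone CENP-A, and Trpm8 encodes the cold-sensing channel of sensory neurons. The run held 1 footprint of 7 bases shared by both replicates. An ETS match on the minus strand (ACTTCCGG on the plus strand) lay inside Hjurp, with its leftmost base 19 bp from the 5′ end. It carried no footprint base common to both. The run between Aamp and Pnkd, at chr1:74284708-74284960, held 6 shared footprint stretches covering 98 of its 253 bases. A shared footprint covered all 7 letters of the CCAATGG at 28 bp from the 5′ end of Aamp, and the CCAATCA at 60 bp carried none. The run between Cdc27, a subunit of the anaphase-promoting complex, and Myl4, an atrial myosin light chain, lies at chr11:104550590-104550693. Of its 104 bases, 74 were under a footprint in both replicates. In the run between Nfya, which encodes a subunit of the CCAAT-binding factor NF-Y, and Oard1, at chr17:48409876-48410044, the shared footprints covered 50 of 169 bases. The middle 300 bases between Zfp654 and Cggbp1, at chr16:64851675-64851974, held 139 such bases.

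Among the textbook pairs, the run between Atm, the kinase that responds to DNA double-strand breaks, and Npat, a coactivator of histone genes, lies at chr9:53536744-53537043. It held 68 shared footprint bases of 300. The run between Mcm4, a subunit of the replicative helicase, and Prkdc, the catalytic subunit of the DNA-dependent protein kinase, lies at chr16:15637484-15637783 and held 86. The run between Brca1, which acts in homologous recombination, and the autophagy receptor gene Nbr1, at chr11:101551925-101552179, held 10 of 255. The run between the collagen genes Col4a4 and Col4a3, at chr1:82586819-82586951, held none and had no peak in either replicate.

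The 5′ ends of a pair were 129.5 bp apart at the median, with a range of 1 to 987 bp. In 312 pairs (41.4%) the distance was at most 100 bp, in 618 (82.0%) at most 300 bp, and in 70 over 500 bp. The CpG ratio is the observed over the expected number of CpG, here over 1000 bp centred on the region. Its median was 0.773 in divergent regions, with an interquartile range of 0.668 to 0.864, against 0.752 at the divergent promoters of a coding and a long noncoding gene and 0.483 at one-gene promoters. GC content was 60.2% at the median in divergent regions, against 53.9% at one-gene promoters. One-gene promoters are the 18811 protein-coding genes with no other protein-coding 5′ end within 2000 bp. A noncoding gene may start within that distance, so coding genes of the coding and noncoding set can be among them. Because CpG ratio and width differ between the sets, one-gene values below are standardised. They were taken in windows of 4 widths and weighted to the divergent regions' shares of each CpG ratio decile and width class. Divergent regions of either kind hold the starts of 2 genes, and a one-gene window that of 1 protein-coding gene. The weighting does not adjust for this. The 20 pairs on the X chromosome were kept, and no pair lay on Y.

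Both samples gave dense maps: 144270 peaks and 348892 footprints in replicate 1, and 124426 peaks and 327771 footprints in replicate 2. The sources used here do not give the number of reads behind them. Of 14 genes that mark hippocampal or other neurons, among them Camk2a, Prox1 and Neurod6, 14 had a peak in both replicates within 300 bp of their 5′ end. Of 5 astrocyte marker genes 5 had one, and of 5 oligodendrocyte marker genes 4. Of 5 inhibitory neuron marker genes 1 (Gad2) had a peak in both replicates, of 4 microglial marker genes 0, of 4 endothelial marker genes 1 (Kdr) and of 7 marker genes of other tissues 0. Of 3 choroid plexus and ependyma marker genes 1 had one, Foxj1, with heights of 6.38 in replicate 1 and 6.12 in replicate 2. The part of these other cell types in the divergent peaks was not tested. Over the 5′ ends of all protein-coding genes, the share with a peak in both replicates was 54.9%. The lists are short and were read at 1 annotated 5′ end per gene, so they do not settle which cell types were present.

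Nearly all divergent regions were open. A region was called open where at least 1 bp of a peak overlapped it, and closed where none did in either replicate. A peak overlapped 712 of 754 regions (94.4%) in replicate 1 and 712 (94.4%) in replicate 2. Over the 5′ ends of all protein-coding genes, 57.4% had a peak within 300 bp in replicate 1, 56.1% in replicate 2 and 54.9% in both. A peak in both replicates stood at 711 divergent regions (94.3%), in neither at 41, in replicate 1 alone at 1 and in replicate 2 alone at 1. Pinlyp/Xrcc1 had a peak of height 0.43 in replicate 1 alone, and Nup62cl/Pih1h3b one of 0.19 in replicate 2 alone. Of divergent regions 94.3% had a peak in both, against 88.5% of the standardised divergent promoters of a coding and a long noncoding gene and 83.8% of standardised one-gene promoters. Without standardisation the one-gene share was 50.9%. Per replicate, divergent regions averaged 94.4% and one-gene promoters 85.3% ± 0.69 (SD, n = 2), and the difference was 8.65 percentage points in replicate 1 and 9.63 in replicate 2, larger than the spread between replicates. For a peak in both replicates the difference was 10.4 percentage points. A divergent region counts as open by a peak at either of 2 gene starts, and the part of this in the difference was not tested.

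The gap was wide at low CpG ratio and narrow at high CpG ratio. In the lowest decile (CpG ratio 0.10 to 0.55), a peak in both replicates stood at 56.6% of divergent regions and 21.4% of one-gene promoters. In the second decile the shares were 96.0% and 78.4%, and in the highest decile (0.95 to 1.14) they were 97.4% and 95.7%. The divergent share was the higher in 10 of 10 deciles in each replicate. The lowest decile is broad, and no matching was made within it. With 20 bins in place of 10 the overall difference was 8.64 percentage points.

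The tallest peak of a divergent region was also taller at the median than that of a one-gene promoter of like CpG ratio. The divergent height is the maximum over a region with 2 gene starts, and the part of this in the difference was not tested. Heights are the authors' own value per peak, on a scale that the sources used here do not state. Over regions with a peak, the median height was 6.08 in divergent regions and 3.92 at one-gene promoters in replicate 1. In replicate 2 it was 4.69 in divergent regions and 3.17 at one-gene promoters. The mean of the replicates' medians was 5.39 ± 0.99 in divergent regions and 3.55 ± 0.53 at one-gene promoters (SD, n = 2). Replicate 2 was lower in both sets, and within each replicate the divergent median stood higher, 1.55-fold in replicate 1 and 1.48-fold in replicate 2. Over regions open in both replicates the divergent median of the replicate means was 5.37, against 4.45 at the divergent promoters of a coding and a long noncoding gene and 3.62 at one-gene promoters, a log2 difference of 0.57 between the divergent and the one-gene median. The log2 difference ranged over CpG deciles from 0.39 to 1.02, and the divergent median was the higher on 20 of 20 chromosomes in each replicate. The coding and noncoding set lay between the other sets in both replicates.

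**Figure D1:**
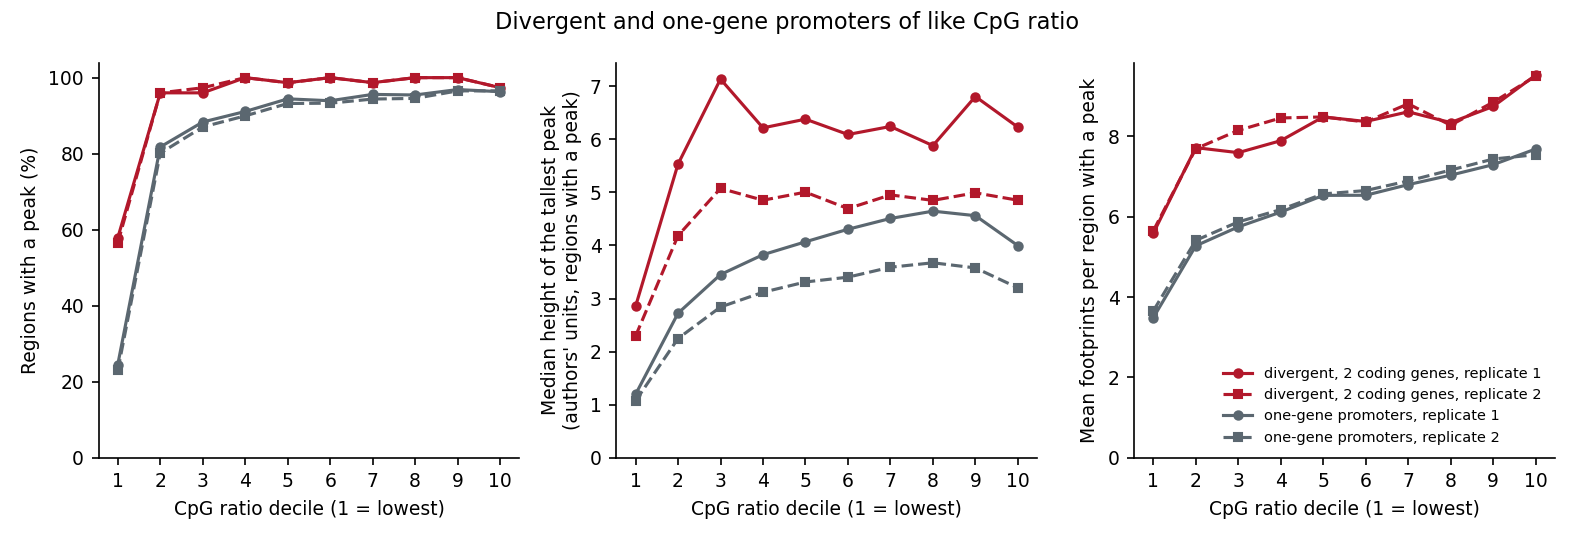
Share of regions with a peak (left, %), median height of the tallest peak (middle, authors' units) and mean number of footprints (right) by decile of CpG ratio, for divergent regions (red) and standardised one-gene promoters (grey), with replicate 1 as solid lines and circles and replicate 2 as dashed lines and squares. The red points lie above the grey points of the same replicate in 10 of 10 deciles for each measure.

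The distributions overlapped widely. The middle 50% of divergent heights ran from 3.47 to 7.60, against 1.84 to 5.97 at one-gene promoters. Heights below 1 were found at 15 divergent regions (2.11%) and at 11.5% of one-gene promoters. Of one-gene promoters with a peak, 30.1% stood above the divergent median. Set against every peak of the genome, whose median height was 0.643 in replicate 1 and 0.639 in replicate 2, the divergent median lay above 97.5% of peaks in replicate 1 and 96.8% in replicate 2. The 15 open regions on the X chromosome, of which the male mice carry 1 copy, had a median height of 3.47, against 5.48 at the open regions on autosomes. On X the divergent medians were 3.88 in replicate 1 and 2.80 in replicate 2, against one-gene medians of 2.26 and 1.80 in the same replicates, and the part of copy number in the lower heights was not tested.

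Peak cover and peak number differed little. Peaks covered 279.5 bp of a divergent region at the median and 263 bp of a one-gene promoter. In replicate 1 alone the values were 263 and 260 bp, a difference of 3 bp, and in replicate 2 they were 280 and 260 bp, so this difference was not beyond the spread between replicates. A divergent region with a peak held 1.333 peaks on average, against 1.302 at a one-gene promoter.

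Footprints were more frequent. A divergent region open in both replicates held 8.28 footprints on average, against 7.50 at the coding and noncoding set and 6.63 at one-gene promoters. The means were 8.20 in replicate 1 and 8.34 in replicate 2 for divergent regions, against 6.50 and 6.59 for one-gene promoters in the same replicates. The replicates' means averaged 8.27 ± 0.10 and 6.55 ± 0.061 for these 2 sets (SD, n = 2), and the sets did not overlap. Per 100 bp of peak the divergent regions held 1.88 footprints and the one-gene promoters 1.69. Of the footprints in divergent regions, 71.9% of those in replicate 1 were overlapped by one in replicate 2, and 71.0% the other way round. Over all footprints of the genome these shares were 49.1% and 52.1%. Most peaks of the genome are far lower than those of divergent regions, and these shares were not set beside those of one-gene promoters. The count of footprints was higher where the tallest peak was taller, with a Spearman rho of 0.40 in replicate 1 and 0.35 in replicate 2 over 712 regions each, a description of points that share a library and its depth.

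Footprints were denser between the 2 start sites than beyond them. Between the 5′ ends there were 1.64 footprints per 100 bp in replicate 1 and 1.68 in replicate 2, and in the 300 bp margins beyond them 0.846 and 0.858. The midpoint of the tallest peak fell between the 5′ ends in 64.04% of open pairs in replicate 1 and 63.48% in replicate 2. By distance class, from the closest to the most distant, the share was 48.7%, 71.3%, 84.8% and 74.6% in replicate 1 and 46.7%, 72.5%, 83.8% and 74.6% in replicate 2. Between replicates the midpoint moved by 10 bp at the median, and by at most 50 bp in 85.5% of pairs. At one-gene promoters the tallest peak lay upstream of the 5′ end in 68.3% in replicate 1 and 67.5% in replicate 2. This measure is looser, since no second 5′ end bounds it, but a place upstream is not particular to divergent pairs.

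Where the start sites were close, 1 peak mostly covered both, and more than 1 peak was more frequent where they were far apart. Among pairs 1 to 100 bp apart, the tallest peak covered both 5′ ends in 88.7% of open pairs in replicate 1 and 86.3% in replicate 2. Above 100 and up to 250 bp these shares were 56.1% and 57.0%, above 250 and up to 500 bp 15.2% and 17.1%, and above 500 bp 0% in both. The share of open pairs with more than 1 peak was 16.7% in both replicates in the closest class and 25.8% and 26.6% in the next. It was 45.7% and 46.7% above 250 and up to 500 bp, and 71.4% and 65.1% above 500 bp. Of pairs over 250 bp apart with more than 1 peak, the 2 tallest peaks stood on either side of the middle in 77 of 93 in replicate 1 and 75 of 90 in replicate 2. Tallest peaks of pairs above 250 and up to 500 bp had a median length of 260 bp in replicate 1 and 280 bp in replicate 2. Over all pairs the median length was 240 bp in both, and a peak of that length cannot span an interval above 250 bp. The regions also widen with distance, so more peaks can overlap them. These shares are not set beside one-gene windows of like width.

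The share of pairs with a peak in both replicates did not follow distance: it was 96.2%, 92.7%, 95.5% and 90.0% from the closest class to the most distant. Median heights were 5.12, 6.72, 7.35 and 5.55 in replicate 1 and 4.16, 5.04, 5.42 and 4.43 in replicate 2, in the same order. Both replicates had the tallest medians above 250 and up to 500 bp.

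**Figure D2:**
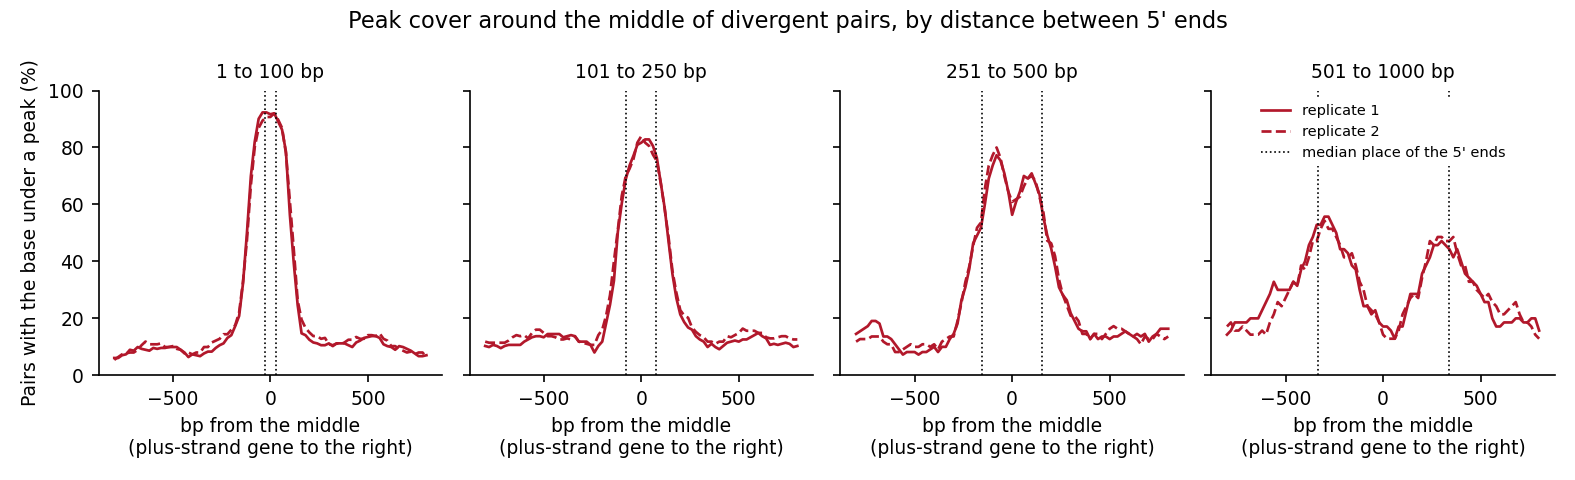
Share of divergent pairs (%) whose base at a given distance from the middle of the pair (bp) lies under a peak, for 4 classes of distance between the 5′ ends, with replicate 1 solid, replicate 2 dashed and dotted lines at the median place of the 5′ ends of the class. A single summit spans both 5′ ends up to 250 bp, and above 500 bp the cover at the middle is 17.1% in replicate 1 and 14.3% in replicate 2, with a summit on each side.

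Single pairs show these arrangements. Bag4/Lsm1 and Slc7a6os/Prmt7, with 5′ ends 1 bp apart, each had 1 peak in both replicates. Bag4 encodes a co-chaperone of Hsp70 and Lsm1 a subunit of the mRNA decay complex. Its heights were 7.36 in replicate 1 and 4.90 in replicate 2, and the peak's midpoint lay 3 bp from the middle in both. Btf3l4/Txndc12, at 987 bp the widest pair, had 2 peaks in replicate 1 and 3 in replicate 2. Its tallest peak, 3.89 high in replicate 1 and 2.76 in replicate 2, had its midpoint at -417 and -477 bp from the middle, where negative values lie toward the gene on the minus strand, Btf3l4. In Zfyve26/Rad51b, 978 bp apart, the tallest peak lay at -462.5 bp, toward Zfyve26, in both replicates. Zfyve26 encodes the hereditary spastic paraplegia protein spastizin and Rad51b a recombination protein. In Atm/Npat, at 307 bp, 1 peak with its midpoint at -33 bp, toward Atm, stood in both replicates.

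The tallest of the 711 open pairs was Hjurp/Trpm8, 28 bp apart, with a height of 29.3 in replicate 1 and 22.0 in replicate 2. Rita1/Ddx54, where Ddx54 encodes an RNA helicase, followed with 17.3 in replicate 1 and 12.4 in replicate 2. Its tallest peak had its midpoint 306.5 bp from the middle in both replicates, inside Ddx54. Both replicates of these pairs lay far above the divergent medians. Cdc27/Myl4 had 14.0 in replicate 1 and 14.2 in replicate 2, and Deaf1/Tmem80 had 13.05 and 12.30 in the same replicates. Deaf1 encodes a transcription factor. Aamp/Pnkd had 16.6 in replicate 1 and 11.1 in replicate 2, Nfya/Oard1 had 15.3 and 11.3, and Alg12/Creld2 had 14.96 and 11.47. Alg12 encodes a mannosyltransferase of protein glycosylation and Creld2 a protein of the endoplasmic reticulum. Cep57/Fam76b and Zfp654/Cggbp1 were also among the 10 tallest pairs, which all had means of 12.3 or more. Cep57 encodes a centrosomal protein. Rita1/Ddx54 also had the second highest second peak, 9.47 as the mean of replicates, after Dcaf6/Mpc2 at 9.65. Mpc2 encodes a subunit of the mitochondrial pyruvate carrier.

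Of 11 pairs known from textbooks or early studies as divergent, 5 met the rule. The other 6, among them Hspd1/Hspe1 and Surf1/Surf2, lie on opposite strands but have annotated 5′ ends that overlap by 21 to 277 bp, so the rule leaves them out. Atm/Npat had heights of 13.2 in replicate 1 and 9.54 in replicate 2. Mcm4/Prkdc had 11.3 and 8.99 in the same replicates. Both pairs stood above the divergent median of each replicate. Brca1/Nbr1 had 4.76 in replicate 1 and 4.28 in replicate 2, below the divergent median in each. Col4a4/Col4a3, which encodes chains of basement membrane collagen found in kidney glomeruli, had no peak in either replicate.

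**Figure D3:**
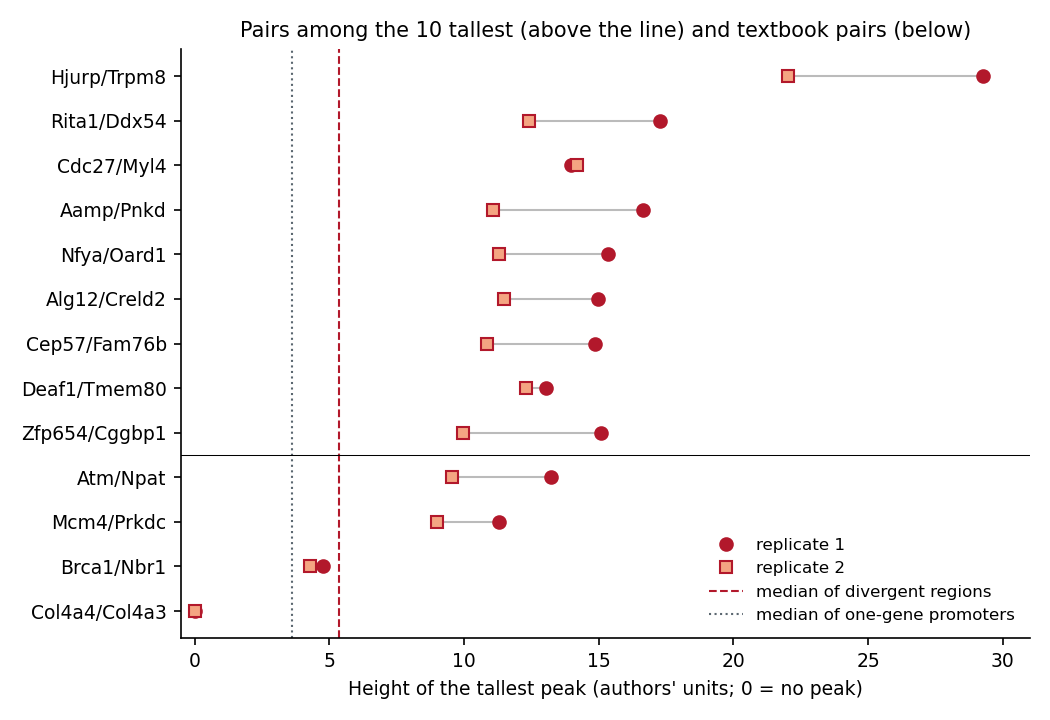
Height of the tallest peak (authors' units) in replicate 1 (circles) and replicate 2 (squares) for 9 of the 10 tallest divergent pairs, above the horizontal line, and for 4 of the 5 textbook pairs that met the rule, below it. The dashed line is the median of divergent regions, 5.37, and the dotted line that of standardised one-gene promoters, 3.62. Col4a4/Col4a3 sits at 0 in both replicates.

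Several groups of genes with basic functions were frequent among the pairs. Over all pairs, 711 of 754 (94.3%) were open in both replicates, so open counts near that share are no result about a group. Of the genes of DNA replication and repair 43 (28.9%) stood in divergent pairs, against 6.77% of the protein-coding gene symbols. A peak in both replicates stood at 43 of their 44 pairs, and the median height was 5.79, against 5.37 over all pairs. Atm/Npat had the tallest peak of this group. Of 109 genes of RNA polymerases and splicing 27 (24.8%) stood in pairs, and 27 of 27 pairs were open in both, with a median of 6.13. Hnrnpa2b1/Cbx3, which joins an RNA-binding protein gene and a heterochromatin protein gene, had 9.82 in replicate 1 and 9.19 in replicate 2. Of 110 genes of cilia and centrosomes 25 (22.7%) stood in pairs, and 25 of 25 pairs were open, with a median of 5.49.

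Mitochondrial genes were frequent too. Of 78 genes of the mitochondrial ribosome 18 (23.1%) were in pairs, with 18 of 18 open, against 94.3% of all pairs, and a median of 6.35. Mrps18b/Ppp1r10 had 12.5 in replicate 1 and 10.0 in replicate 2, and Mrpl49/Fau had 10.2 and 6.78. The tallest peak of Mrps18b/Ppp1r10 had its midpoint 319 and 409 bp from the middle in the same replicates, inside Ppp1r10. Of 112 genes of oxidative phosphorylation 25 (22.3%) were in pairs, with 25 of 25 open and a median of 5.72. Tepsin/Ndufaf8, the second a complex I assembly gene, had 12.6 in replicate 1 and 11.7 in replicate 2. Uqcrq, a complex III subunit gene, shares its region with the oocyte growth factor gene Gdf9, and the pair had 12.2 and 9.22 in the same replicates. That peak lay 143.5 and 133.5 bp from the middle, toward Gdf9, and covered the 5′ end of Gdf9 but not that of Uqcrq. All 5 pairs of mitochondrial import genes were open, with a median of 3.50, among them Sdhd/Timm8b with 6.31 in replicate 1 and 5.15 in replicate 2. All 5 pairs with an aminoacyl-tRNA synthetase gene were open, with a median of 5.81. Mrps12/Sars2, which joins a mitochondrial ribosomal protein and the mitochondrial seryl-tRNA synthetase, had 8.52 and 6.58. All 8 pairs with a proteasome gene were open, with a median of 4.46.

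Cytosolic ribosomal protein genes were less frequent, at 8 of 83 (9.64%), and 7 of 8 pairs were open, against 94.3% of all pairs. Med22/Rpl7a had 11.5 in replicate 1 and 9.82 in replicate 2, and Rps28/Ndufa7 had 9.19 and 8.01. The closed pair was Rnf151/Rps2, with a CpG ratio of 0.16. Its annotated 5′ ends did not both lie within 100 bp of a RefSeq start of the same symbol. Ubiquitin ligase and E2 genes gave 28 of 277 genes (10.1%) and 26 open pairs of 29. Zinc finger protein genes gave 26 of 456 (5.70%) and 22 open pairs of 23. These shares are counts over lists set with earlier results of these data known, and no test was made on them.

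Synaptic and other neuronal genes were rare in divergent pairs, at 3 of 235 (1.28%), and olfactory and vomeronasal receptor genes rarer, at 1 of 1479 (0.0676%). Their few pairs were open. Tmem126b/Dlg2, 671 bp apart, joins a complex I assembly gene and the gene of the postsynaptic scaffold PSD-93. The pair had 11.9 in replicate 1 and 7.56 in replicate 2. That tallest peak lay at -246 and -236 bp from the middle in the same replicates, toward Tmem126b and away from Dlg2. Nlgn2/Tmem256, with the adhesion protein gene of inhibitory synapses, had 9.39 and 6.14. Here the tallest peak lay 151.5 and 301.5 bp from the middle, toward Tmem256 and away from Nlgn2. Grik5/Zfp574, with a kainate receptor subunit gene, had 1.65 and 1.08, below the divergent median of each replicate. The vomeronasal receptor gene Vmn1r4 shares its region with Nt5c3, a nucleotidase gene, and that pair had 6.29 in replicate 1 and 4.51 in replicate 2.

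**Figure D4:**
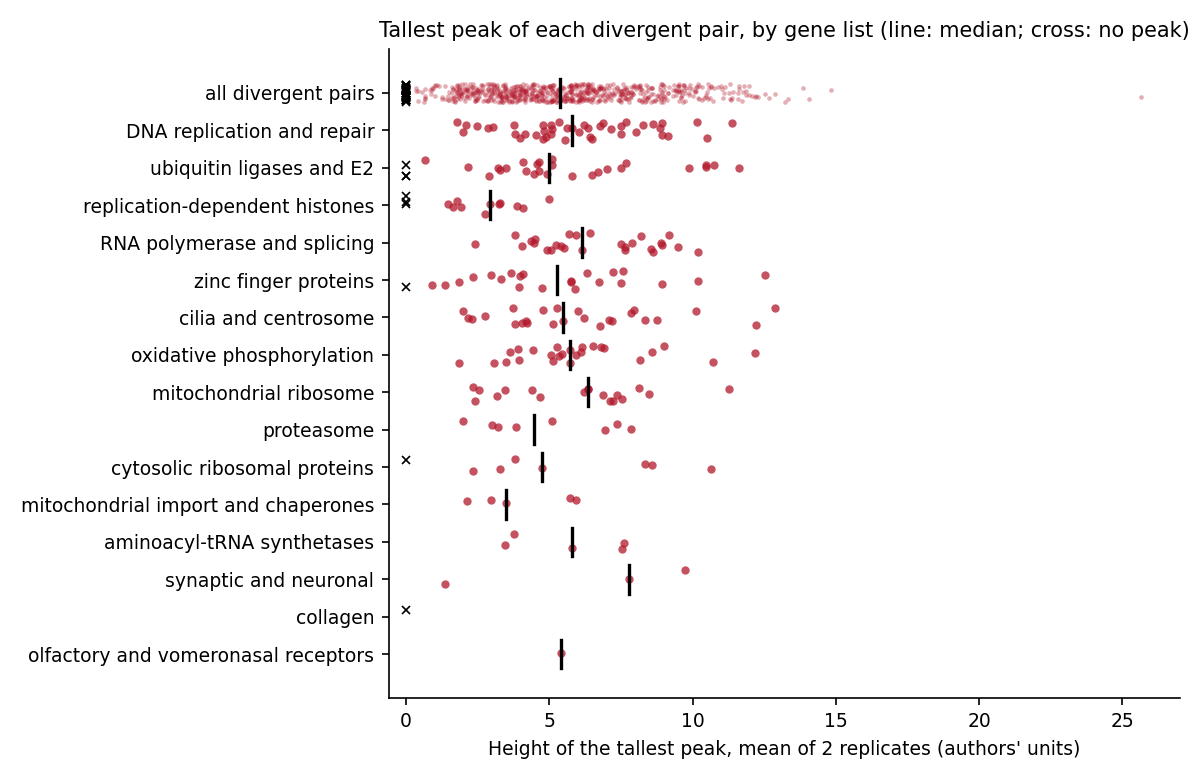
Height of the tallest peak (mean of the 2 replicates, authors' units) for each divergent pair, in rows by gene list, with a point per pair, a vertical line at the median of open pairs and a cross at 0 for a pair with no peak in either replicate. Replication-dependent histone pairs have a median of 2.93, against 5.37 over all pairs, and the rightmost point is Hjurp/Trpm8.

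Replication-dependent histone genes had the highest share of any list, 27 of 67 genes (40.3%), and formed 14 pairs, 13 of them of 2 histone genes. Their peaks were low for their CpG ratio. The median height over the 11 open pairs was 2.93, with a range of 1.448 to 5.003, at a median CpG ratio of 0.938. Hist1h2bf/Hist1h2ad had the tallest peak with 5.80 in replicate 1 and 4.20 in replicate 2. The 3 closed pairs were Hist1h2bq/Hist1h2ao, Hist1h2ap/Hist1h2br and Hist1h2ba/Hist1h2aa. Histone genes are near-identical copies, so reads from them may fit several places. Of the 32-base words of the regions, 100% stood at more than 1 place of the mm10 chromosomes in Hist1h2bq/Hist1h2ao and 100% in Hist1h2ap/Hist1h2br. In Hist1h2ba/Hist1h2aa, whose genes are known for expression in testis, the share was 9.70%. In all, 14 of 754 regions had such a share above 50%, 4 of the 41 closed regions and 10 of the 711 open ones. The sources used here do not say how reads with several fits were treated, and the part of this in the histone heights was not tested.

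The 41 closed regions differed from the open ones in base composition. Their CpG ratio was 0.301 at the median, against 0.781 in regions open in both replicates, and 29 of them lay below 0.5, where 52 of all 754 regions lay. Only 8 had a ratio above 0.6, among 639 such regions. Distance between 5′ ends was 135 bp at the median in closed pairs, against 128 bp in open pairs. No closed region held a footprint, and 1 region in each replicate held bases listed in the authors' file of false discovery rates. Beside the histone pairs, the closed regions with the highest CpG ratio were N4bp3/D930048N14Rik (0.84), Gm10447/Shroom1 (0.68), Klc3/Ckm (0.66), Duox2/Duoxa2 (0.62), Gm4779/8030474K03Rik (0.60), Lypd4/Dmrtc2 (0.57) and Bhmt2/Dmgdh (0.54). Ckm encodes the creatine kinase of muscle, Duox2 and Duoxa2 the thyroid dual oxidase and its maturation factor, and Bhmt2 and Dmgdh enzymes of liver methyl metabolism. Both 5′ ends lay within 100 bp of a RefSeq start of the same symbol in 7 of 41 closed pairs (17.1%), and in 350 of 711 open pairs (49.2%).

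Motif letters at divergent regions differed from those at one-gene promoters of like CpG ratio and width. Each motif was searched as fixed letters on both strands, and a match is a description of the sequence, not a bound site. Shares are per region, and a divergent region holds the starts of 2 protein-coding genes, a one-gene window that of 1. The part of this in the ratios was not tested. Of 17 motifs, 6 were found in a share of divergent regions more than 1.5 times that of one-gene promoters. YY1 (AAGATGGCG) matched 9.42% of divergent regions and 4.95% of one-gene promoters. ETS (CCGGAAGT) matched 16.98% and 9.18%, and BANP (TCTCGCGAG) 3.85% and 1.96%. RFX (GTTGCCATG or GTTGCTATG) matched 3.32% and 1.69%, E2F (TTTCCCGC or TTTGGCGC) 9.42% and 5.98%, and EGR (GCGTGGGCG) 4.38% and 2.72%. These factors are activators or regulators of housekeeping, ciliary, cell-cycle and activity-dependent genes. In each of these pairs of values the divergent share was the higher, but EGR was no longer above 1.5 times with 100 bp margins, where its log2 ratio was 0.23, against 0.69 here.

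NFY, the CCAAT box (CCAATCA, or the same with GA, GG or CG as the last letters), was the most frequent, in 42.4% of divergent regions and 30.6% of one-gene promoters. Between the 5′ ends alone, upstream of both genes, NFY was in 29.2% of pairs. The same length upstream of one-gene promoters held it in 14.96%. Of all its matches in divergent regions, 66.9% lay between the 5′ ends, which hold 24.3% of the bases. YY1 had the opposite placing, with 9.21% of its matches between the 5′ ends and the rest inside the genes. NRF1 (GCGCATGCG) was in 6.76% of divergent regions and 4.57% of one-gene promoters, USF (CACGTGAC) in 7.56% and 5.34%, ZNF143 (ACTACAA) in 9.42% and 6.66%, and CRE (TGACGTCA) in 5.31% and 4.39%. SP/KLF (GGGGCGGGG) was nearly equal, in 32.1% of divergent regions and 33.1% of one-gene promoters. CTCF (CCAGGGGGC), whose letters can overlap an SP/KLF match, was in 2.12% and 2.94%. AP-1 (TGANTCA) was in 7.82% and 10.6%, NEUROD (CAGATGG) in 8.36% and 8.77%, and MEF2 (CTATTTATA) in 0.265% (2 regions) and 0.531%. The order for SP/KLF and NEUROD turned round with 100 bp margins or with one-gene windows of fixed width, and that for AP-1 with fixed width. A match of NRF1, ETS, SP/KLF, NFY, YY1 or CRE was in 566 pairs (75.1%).

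TATA boxes were rare. TATAAA on the gene's own strand, 45 to 15 bp upstream of the 5′ end, was found at 0.332% of the starts of divergent genes and 1.27% of one-gene starts. That was 5 pairs, with a box at 1 gene each. Hist2h2ac/Hist2h2be, Hist1h2ae/Hist1h2bg and Hist1h2ac/Hist1h2bc are histone pairs, and the others were Foxa3/Sympk and the closed pair Duox2/Duoxa2. Foxa3 encodes a liver transcription factor and Sympk a scaffold of pre-mRNA cleavage.

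**Figure D5:**
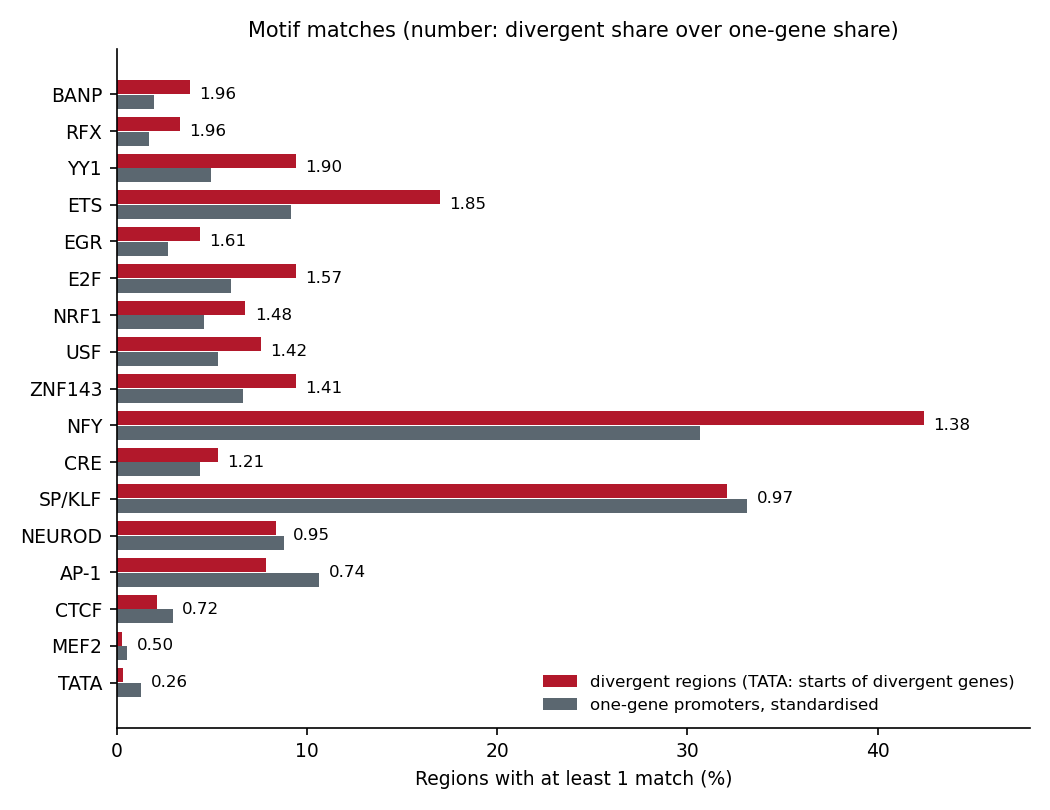
Share of divergent regions (red) and of standardised one-gene promoters (grey) with at least 1 match of each motif (%), ordered by the ratio of the shares, which is printed beside the bars. For TATA the bars give shares of gene starts. NFY and SP/KLF are the longest bars, and BANP, RFX, YY1 and ETS have ratios of 1.85 or more.

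Matches differed in how often a footprint lay on them. In open divergent regions, 15.3% of bases in replicate 1 and 15.4% in replicate 2 lay under a footprint. Of 87 NRF1 matches, 93.1% were overlapped by a footprint in replicate 1 and 94.3% in replicate 2. Of 42 CRE matches the shares were 90.5% and 92.9%, of 49 BANP matches 79.6% and 71.4%, and of 353 SP/KLF matches 72.8% and 67.1%. YY1 had 50.7% and 48% of 75, and ETS 47.3% and 45.2% of 146. NFY, for all its frequency, had 37.4% and 35.6% of 511. AP-1 had 16.4% and 5.45% of 55. Overlap by 1 bp counted, so a match is reached more easily than a single base, and longer motifs more easily still. The share of bases is thus not a like baseline for these shares. Footprints were also denser between the 5′ ends, and motifs differ in how many matches lie there. Neither was adjusted for, and DNase I's own sequence preference was not analysed here.

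Pairs with an NFY match had taller peaks, with medians of 7.19 with and 5.19 without a match in replicate 1 and 5.204 and 4.191 in replicate 2, over 302 pairs with and 409 without. For NRF1 the medians were 8.07 over 51 pairs with a match and 5.96 over 660 without in replicate 1, and 6.14 and 4.64 in replicate 2. With CRE, ZNF143 and YY1 matches the medians were also higher, at 7.91, 7.29 and 6.99 in replicate 1, against 6.04, 5.88 and 5.98 without. The order was the same in replicate 2. For ETS the medians were 6.24 with and 6.07 without in replicate 1, and 4.75 and 4.69 in replicate 2. SP/KLF pairs differed as little, at 6.22 with and 6.04 without in replicate 1 and 4.69 in both in replicate 2. EGR went the other way, at 4.29 over 31 pairs with and 6.21 without in replicate 1, and 3.85 and 4.72 in replicate 2. NEUROD was lower with a match too, at 4.97 and 6.19 in replicate 1, as was TATA over 4 pairs. Height is the maximum over a region that widens with distance, and NFY matches lay mostly between the 5′ ends. Spearman's rho of height and distance was 0.19 in replicate 1 and 0.15 in replicate 2. The part of distance in these medians was not tested.

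The interval between B3galt6 and Sdf4, at chr4:155992619-155992902 in the run given above, is made of many near-identical units. Of the region's 32-base words, 26.2% stood at more than 1 place of the genome. The region held 20 footprints in replicate 1 and 20 in replicate 2, among the highest counts of any pair, and its tallest peak, 7.88 and 6.96, lay 310 and 320 bp to the Sdf4 side of the middle. B3galt6 encodes a galactosyltransferase of proteoglycan synthesis and Sdf4 a calcium-binding protein of the Golgi. The most footprints were found in pairs with wide intervals such as Fiz1/Gm44973 (23 in replicate 1 and 21 in replicate 2, 799 bp apart) and Ttc9c/Hnrnpul2 (21 and 21, 677 bp apart).

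The replicates ranked the regions alike. Across the 711 regions open in both, Spearman's rho of the heights was 0.97, a description of points that share 2 libraries. Replicate 2 was lower than replicate 1 at 689 of 711 divergent regions (96.9%) and at 91.5% of standardised one-gene promoters. The median log2 ratio of replicate 2 over replicate 1 was -0.38 (SD 0.20 over regions) at divergent regions, against -0.34 (SD 0.25) at one-gene promoters. Of divergent regions 100% lay within 2-fold of their median ratio, and of one-gene promoters 99.7%. Asb7/Lins1 had the lowest ratio, with 12.9 in replicate 1 and 6.30 in replicate 2. Net1/Tubal3 and 1110059G10Rik/Kif15 had the highest, with 2.66 and 3.79 in replicate 1 and 3.24 and 4.62 in replicate 2.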

How the data were processed

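Hippocampus of 1 group of 2 samples was measured by DNase-seq. Peak heights are values of unit signal that the authors deposited per peak and per sample, on a scale that is not stated. The longer of the 2 deposited peak lists of each sample was used. The authors deposited footprints with a constant of 0.01, read as a threshold on a p-value or q-value, and a file of false discovery rates that lists values up to 0.05 in each replicate (highest 0.0500 in replicate 1 and 0.0499 in replicate 2). Per the labels the assembly was mm10. The sources used here do not give the aligner, the callers, their versions or the read depth, so no counting interval can be attached to a height.

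Gene 5′ ends are the outermost ends of the genes in GENCODE M21 (basic set). A peak counted with 1 bp of overlap, and a region's height is that of its tallest peak. One-gene promoters were measured in windows built for 4 distances (43, 89, 171 and 393 bp) with 300 bp margins. They were weighted to the divergent regions' shares of 10 CpG deciles and of the 4 width classes. On simulated data with a planted difference of 10 percentage points the weighting recovered 9.96, and 22.9 without it, over 754 regions. The simulated chance of a peak depended only on CpG decile and width class, the classes that the weights use. The simulation thus checks the calculation and cannot speak to differences within a class. Repeated sequence was counted as 32-base words found at more than 1 place on 21 chromosomes, on either strand. Named pairs follow fixed rules: the 10 tallest, textbook pairs, closed pairs of highest CpG ratio, pairs with most footprints, highest second peaks, extreme replicate ratios or distances, and up to 2 open pairs with the tallest peaks and 1 closed pair per gene list. Exceptions named after their values were seen are Grik5/Zfp574 and the pairs with a TATA box. The members and lists were chosen with earlier results of these data known. Some pairs that these rules name are not reported here. No p-value was computed, since there is 1 group. Tools were Python 3.11.15, pandas 2.3.3, numpy 2.4.6, scipy 1.17.1 and bedtools 2.31.1. Alternatives were other peak lists, margins, distance limits, comparison promoters, CpG matching and leaving out each replicate.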

Additional observations from a re-analysis of the deposited data

How the results depend on the processing

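Divergent regions stayed above one-gene promoters in share with a peak, height and footprints under every alternative run, and none reversed. The share difference, 10.4 percentage points, was 14.1 with the shorter peak lists, 12.1 when a peak's midpoint had to lie in the region, 13.5 with 100 bp margins, 8.64 with 20 CpG bins and 11.8 with one-gene windows of fixed width. With each replicate left out it was 8.65 to 9.63. The log2 height difference, 0.57, was 0.50 with the shorter lists and 0.56 to 0.63 with each replicate left out. It was 0.45 over the 357 pairs, and the one-gene promoters, whose 5′ ends lay near a RefSeq start, an alternative chosen after seeing the data. The difference in footprints per region, 1.65, was 1.45 with the shorter lists, 1.59 by midpoint, 1.44 with 100 bp margins, 1.51 up to 500 bp, 1.73 against promoters with no 5′ end of any gene within 2000 bp, 2.12 with fixed width, 1.39 for footprints found in both replicates, 1.45 near a RefSeq start and 1.70 to 1.75 with each replicate left out. The difference in peak cover, 16.5 bp, was 3 to 20 bp with each replicate left out. The share of tallest peaks between the 5′ ends, 63.9% over both replicates, was 62.8% up to 500 bp. The count of motifs above 1.5 times, 6, was 10 with fixed width. Of 119 values for single motifs, 115 stayed within their counting interval. CTCF (log2 ratio -0.47, with -1.63 at 100 bp margins) and MEF2 (-1.002, with -0.18 to -1.77) did not, and EGR (0.69) was 0.23 at 100 bp margins. The causes of these changes were not tested.

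No paired analysis was possible because there is 1 group and no result comes from a test. With 2 replicates, both pools of 1 donor label, the SD measures the spread between 2 libraries. Heights have no stated scale and no read depth, so the smallest detectable peak is unknown, and a closed region is one where no peak was detectable at this depth. RNA was not analysed here, so annotated 5′ ends were not set against start sites used in hippocampus.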
